A study of Homo sapiens with 4 samples.

Results

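Rapamycin against its solvent DMSO was compared in Huh7 cells that carried a control short hairpin, by the open chromatin regions found in each condition. The comparison used 2 of the series' 4 libraries: the shControl library with DMSO and the shControl library with 100 nM rapamycin for 6 hours. Both shared the control genotype, and the other libraries came from Huh7 cells with a hairpin against ARID1A (shARID1A), a subunit of the SWI/SNF chromatin remodeller, with the same pair of treatments. Huh7 is an established human hepatocellular carcinoma line. ATAC-seq, in which a transposase cuts accessible DNA, was run on nuclei of 50000 cells per library, and the deposited file of each library lists its peaks on GRCh38. A DMSO peak that shared no base with any rapamycin peak is called lost, and a rapamycin peak that shared none with any DMSO peak is called gained. Each condition had 1 library, so no difference below has a replicate check or a test, and the 95% exact (Clopper-Pearson) intervals cover counting error only. Read depth behind the peaks is unknown.

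Rapamycin binds the immunophilin encoded by FKBP1A, and the complex inhibits mTORC1, the kinase complex through which amino acids and growth factors stimulate protein, lipid and nucleotide synthesis and restrain autophagy. mTORC1 acts mainly by phosphorylating proteins such as S6 kinase, the eIF4E-binding proteins and ULK1, and reaches transcription through factors that include SREBP, HIF1A, ATF4 and TFEB. In hepatocytes it also takes part in insulin feedback, since S6 kinase restrains the insulin receptor substrates.

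The promoters of 5 genes whose peaks differed between the 2 lists are shown first. They are the RefSeq windows on GRCh38.p14 from 250 bases before to 50 bases after the gene start, written 5′ to 3′ on the gene's strand. CCN2 (chr6:131951323-131951622, minus strand) had the largest fall among the pathway genes described below, IRS1 (chr2:226799771-226800070, minus strand) had the largest rise, ULK1 (chr12:131894372-131894671, plus strand) and PDXDC1 (chr16:14974776-14975075, plus strand) lost their peak, and MLLT1 (chr19:6279926-6280225, minus strand) gained one. Capitals mark TEAD letters (GGAATG or its reverse CATTCC), E-box letters (CACGTG) and ETS letters (CCGGAAG), and the matches do not overlap each other.
CCN2: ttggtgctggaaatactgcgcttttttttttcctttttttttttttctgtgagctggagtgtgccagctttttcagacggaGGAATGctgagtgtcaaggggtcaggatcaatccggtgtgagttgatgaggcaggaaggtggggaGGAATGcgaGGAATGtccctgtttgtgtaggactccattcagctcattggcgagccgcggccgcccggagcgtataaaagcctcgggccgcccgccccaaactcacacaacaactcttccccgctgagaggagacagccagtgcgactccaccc
IRS1: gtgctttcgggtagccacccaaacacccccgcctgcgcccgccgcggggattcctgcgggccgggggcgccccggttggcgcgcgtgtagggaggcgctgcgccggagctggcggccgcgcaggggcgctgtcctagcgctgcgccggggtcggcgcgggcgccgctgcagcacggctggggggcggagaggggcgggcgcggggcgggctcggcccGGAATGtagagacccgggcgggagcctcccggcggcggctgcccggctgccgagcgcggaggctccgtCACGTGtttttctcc
ULK1: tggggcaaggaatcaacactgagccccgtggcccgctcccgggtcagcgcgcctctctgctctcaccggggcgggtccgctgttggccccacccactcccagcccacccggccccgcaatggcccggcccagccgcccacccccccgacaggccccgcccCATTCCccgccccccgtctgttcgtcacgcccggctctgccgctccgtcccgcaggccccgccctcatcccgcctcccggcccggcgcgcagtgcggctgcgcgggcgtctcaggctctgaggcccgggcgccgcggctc
PDXDC1: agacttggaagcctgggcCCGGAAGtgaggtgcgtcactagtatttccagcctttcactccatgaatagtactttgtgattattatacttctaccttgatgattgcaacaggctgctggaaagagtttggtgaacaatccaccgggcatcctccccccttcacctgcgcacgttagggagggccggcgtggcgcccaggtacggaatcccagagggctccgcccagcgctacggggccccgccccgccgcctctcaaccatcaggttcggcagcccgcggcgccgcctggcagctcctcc
MLLT1: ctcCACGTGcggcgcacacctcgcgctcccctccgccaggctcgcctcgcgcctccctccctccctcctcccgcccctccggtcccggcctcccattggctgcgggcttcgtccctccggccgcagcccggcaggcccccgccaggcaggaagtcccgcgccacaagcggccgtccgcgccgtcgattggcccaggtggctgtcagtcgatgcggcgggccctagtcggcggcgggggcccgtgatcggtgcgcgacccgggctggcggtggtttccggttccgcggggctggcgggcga
Both strands were searched, and over all 15843 promoter windows of this length the TEAD letters occurred in 11.5%, the E-box letters in 8.69% and the ETS letters in 14.5%. The CCN2 window held the TEAD letters at 3 places, and IRS1 held the TEAD letters once and the E-box letters once. ULK1 held the TEAD letters, MLLT1 the E-box letters and PDXDC1 the ETS letters. The lost PDXDC1 peak covered only the last 130 bases of the window, so the ETS letters, near the window's beginning, lay outside that peak. A match describes the letters and does not show a bound factor.

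The DMSO list held 52192 peaks over 39.9 Mb and the rapamycin list 49783 peaks over 40.7 Mb. Peaks were ranked within their own list by the authors' peak score and are given as percentiles, with 0 the weakest and 100 the strongest, since no common scale of the score across lists is given in the sources used here. Hepatocyte genes had a promoter peak, centred within 1 kb of a gene start, in 24 of 38 cases with DMSO and in 26 of 38 with rapamycin. Of 19695 protein-coding genes, 12915 had one with DMSO and 12985 with rapamycin, so the hepatocyte genes lay near the share over all genes. The liver transcription factor genes HNF4A (percentile 85.7 and 87.4), FOXA3 and NR5A2 were among the hepatocyte genes with a promoter peak. ALB had no promoter peak in either list, and its nearest peak was centred 1732 bp from the start with DMSO and 1555 bp with rapamycin. AFP, the fetal serum protein gene, likewise had its nearest peak 3437 and 3442 bp upstream, at percentiles 91.7 and 94.9. Of the markers of other cell types, promoter peaks were found with DMSO at 5 of 14 leukocyte, 1 of 12 endothelial, 5 of 12 stellate cell and fibroblast and 7 of 12 neuron genes. PTPRC, PECAM1, COL1A1 and RBFOX3 had none. The genes with a peak had a median DMSO percentile of 77.1 for leukocyte, 42.3 for stellate cell and fibroblast and 89.8 for neuron markers. The 1 endothelial gene with a peak, LYVE1, was at 72.0.

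With rapamycin, 11341 of 52192 DMSO peaks were lost (21.7%, interval 21.4 to 22.1), and 9209 of 49783 rapamycin peaks were gained (18.5%, interval 18.2 to 18.8). With the top 49783 peaks of both lists the order turned, to 9465 lost and 9710 gained. Most of these peaks were weak. The median percentile was 17.3 for lost peaks against 60.5 for shared DMSO peaks, and 15.8 for gained peaks against 58.9 for shared rapamycin peaks. Lost peaks were also narrower, with a median width of 424 bp against 778 bp. Among the stronger 50% of each list, 667 of 26092 DMSO peaks (2.56%) were lost and 429 of 24892 rapamycin peaks (1.72%) were gained. The numbering of the rapamycin list skips 1093 peaks. In all, 813 lost peaks lay between neighbours where a number was skipped. The skipped numbers could stand for at most 573 of these lost peaks. For lost peaks of the stronger 50%, counted separately, the limit was 41. The part of these gaps in the loss was not tested.

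Promoter peaks stayed in the other list far more often than distal peaks. Of peaks whose deposited distance put their centre within 1 kb of a transcription start, 758 of 13050 were lost (5.81%) and 740 of 12933 gained (5.72%). Beyond 1 kb, 10583 of 39142 were lost (27%) and 8469 of 36850 gained (23%). Promoter peaks were also stronger, with a median percentile of 80.8 against 41.4 for distal peaks with DMSO. When distal peaks were weighted to the score deciles of promoter peaks, 8.98% were lost and 7.03% gained, so the gap narrowed and the direction remained. Within the weakest decile 62.1% of promoter peaks (57.1 to 67) and 71.9% of distal peaks (70.6 to 73.2) were lost. In the strongest decile 0 of 3950 promoter peaks were lost, which allows a share of up to 0.0933% by the exact interval.

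**Figure D1:**
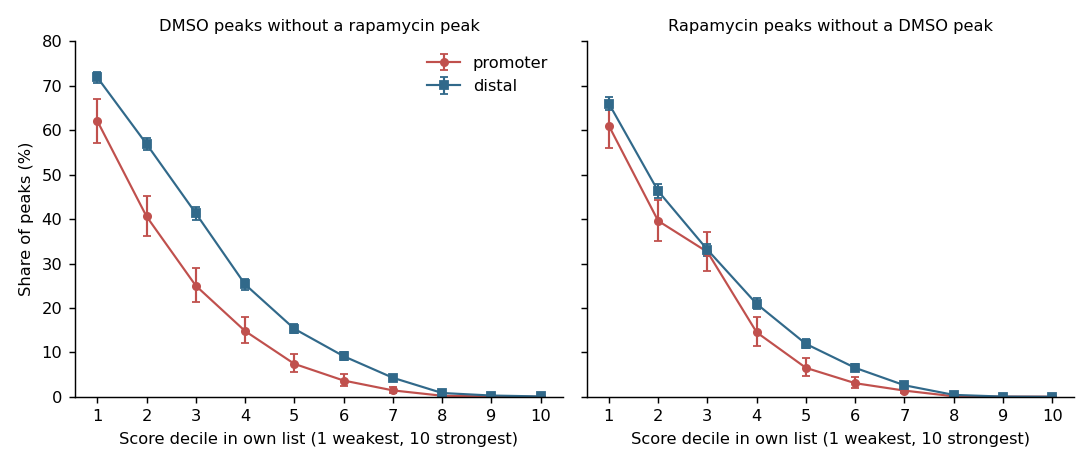
Share of peaks without a counterpart in the other list (vertical axis, percent) by score decile in their own list (horizontal axis), for promoter peaks (circles, within 1 kb of a start) and distal peaks (squares), with 95% exact intervals that cover counting error only. Left, DMSO peaks lost with rapamycin; right, rapamycin peaks gained. Both shares fell from over 60% in the weakest decile to under 1% from the eighth decile on.

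Position made less difference among distal sites. The lost share was 24.4% at 1 to 5 kb from a start and 29.5% beyond 100 kb. By the deposited annotation, over all peaks, those in introns were lost in 26.3% of cases, intergenic peaks in 27.4%, peaks at gene ends in 26.4% and exonic peaks in 14.5%. First introns lost 22.4% of their peaks and later introns 28.9%. Across the autosomes the share of all DMSO peaks lost ran from 15.9% on chromosome 19 to 24.7% on chromosome 13, and that of distal peaks from 24.5% on chromosome 22 to 28.9% on chromosome 4.

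The strongest lost peak lay at chr12:10017-10307, at percentile 93.6, in a sequence annotated as intergenic near the chromosome end, with DDX11L8 as the nearest gene. It was followed by the promoter peak of the zinc finger gene ZNF286A (chr17:15699519-15699863, percentile 87.7). TVP23B, which encodes a Golgi membrane protein, lost a promoter peak at percentile 79.7. Neither ZNF286A nor TVP23B had a promoter peak in either shARID1A list. PDXDC1 (81.2 with DMSO) and OCIAD1 (68.7) lost theirs with rapamycin while both shARID1A lists held one, at 80.8 and 83.5 for PDXDC1 and at 55.3 and 66.8 for OCIAD1. Strong distal losses included peaks near USP47, 28555 bp upstream of its start (percentile 87.4), and in the first intron of RAB11FIP5 with SFXN5 as the nearest gene (84.5), and both of these peaks were present in both shARID1A lists. PEAR1, a platelet receptor gene, lost a peak 1241 bp upstream (83.5). The lost peaks named here were narrow for their rank, at 291 to 744 bp. The median was 898 bp in the stronger 50% of the DMSO list. The lost promoter peaks were 345 bp wide at ZNF286A, 369 bp at PDXDC1 and 296 bp at TVP23B, and the narrowest peak of the list had 289 bp.

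Among the gained peaks the highest lay 886 bp upstream of SKI, which encodes a corepressor of SMAD signalling, at percentile 91.9. SKI also had a separate promoter peak with DMSO, at percentile 14.0. MLLT1, a gene for a subunit of the super elongation complex, gained the promoter peak whose window is printed above (chr19:6279944-6280323, percentile 85.0). UBALD1 (77.1), the neuronal vesicle gene NSG2 (73.6), the fatty acid elongase gene ELOVL3 (68.0) and SNN (67.1) followed. Both shARID1A lists held a peak at SKI, MLLT1, UBALD1, NSG2 and SNN, and the shARID1A DMSO list alone held one at ELOVL3. By the nearest-gene column the gene with most lost peaks was PARD3, a cell polarity gene, with 7 of its 15 DMSO peaks over 230 kb lost, at a median percentile of 15.5. CDCA7L lost 6 of 12, GNAQ 6 of 11 and DST 6 of 16, while TRIO and ESRRG each gained 5 peaks, of 11 and 10. TRIO also lost 5 of 19 DMSO peaks and ESRRG 4 of 12. These genes were picked for their counts, and most of the peaks counted were weak. The median percentile was 8.86 for the lost peaks of GNAQ, 4.95 for the gained peaks of TRIO and 5.08 for those of ESRRG. Over all distal peaks 27% were lost and 23% gained. In the 2 weakest deciles, weakest first, 71.9% and 56.9% of distal peaks were lost and 66% and 46.3% gained.

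At shared promoter peaks the rank hardly moved on the whole. Overlapping peaks of both lists were joined into regions, with the strongest peak of each list taken, and a region counts as a promoter where either list puts it within 1 kb. Over 12997 shared promoter regions the median shift, rapamycin minus DMSO, was -0.08 percentile points, with an interquartile range of -3.56 to 3.42. A region is said to have fallen or risen where it moved by 20 points or more, and 351 promoter regions fell (2.7%) and 382 rose (2.94%). Distal regions leaned downward: over 27434 of them the median was -1.73, and 2804 fell (10.2%) against 1622 that rose (5.91%). That lean was not seen when each list was cut to its top 49783 peaks, where the distal median was -0.20 and 2178 fell against 2210 that rose. The spread depended on the level. At a mean percentile of 90 to 100, 95% of promoter regions lay between -5.61 and 5.16, at 20 to 30 between -34.7 and 35.6, and at 0 to 10 between -12.9 and 11.6, so 20 points lay inside the range at 20 to 30 and outside it at both ends of the scale.

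The largest falls at promoter regions in the stronger 50% of at least 1 list were at MTTP and EDNRB. EDNRB, the endothelin receptor B gene, went from percentile 73.2 to 19.9. The region at MTTP (chr4:99573969-99575088 with DMSO), the gene for the microsomal transfer protein that loads lipid onto lipoproteins, went from 66.2 to 5.56. MTTP kept another promoter peak at 92.4 and 92.5, so its strongest promoter peak did not move. Regions at MGAT5, ASPH and ARAP3 also fell, by 49.5, 49.5 and 43.2 points. These regions and that at MTTP lay within 1 kb of a start by the deposited distance of 1 list only. The strongest promoter peaks of MGAT5 in the 2 lists did not overlap, so its fall describes 1 region and not the strongest peak of the gene. Among the rises, the ephrin receptor gene EPHA3 went from 10.8 to 60.3, the adenylate cyclase gene ADCY9 from 14.8 to 61.4 and the phosphatase gene PTPRJ from 16.0 to 61.9. The peak at EPHA3 was 307 bp wide with DMSO and 954 bp with rapamycin, and that at the desmosomal gene PPL was 370 and 1054 bp.

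For named genes the deposited nearest-gene column could not be used alone. Among 37162 shared regions with the same nearest gene in both lists, the deposited distances placed that gene's start at the same base within 2 bp in 77.3%. By that column 2199 of 12880 genes lost their promoter peak, yet 1093 of the 1359 that matched a protein-coding gene still had one in both lists by position. Gene starts pooled over RefSeq and all 4 lists were therefore used for 19695 protein-coding genes. Of 12915 such genes with a promoter peak under DMSO, 321 lost it (2.49%), and of 12985 with one under rapamycin, 389 had gained it (3%). Of 12386 with a shared promoter peak, 213 fell (1.72%) and 237 rose (1.91%), and 51.1% of shifts were below 0. Over the 546 genes used from the lists described next, 8 of 469 lost (1.71%), 6 of 468 gained (1.28%), and of 456 with a shared peak 14 fell (3.07%) and 5 rose (1.1%). Of these, 6 falls (CCN2, DUSP1, ASAP1, BMP4, PLK1 and EGLN3) and 3 rises (IRS1, FOXO4 and FLCN) lay outside the 95% range of promoter regions of the same level. The other falls and rises, PFKL and PHGDH among them, lay inside it. With shifts of any size counted, 35 of the 456 genes lay outside the range of their level. The range by definition holds 95% of promoter regions, so some genes lie outside it in any large list. The share outside it over all genes was not counted. With equal list lengths IGF1R, EGLN3 and MITF no longer fell (-19.8, -19.4 and -18.1), and EEF2, SLC7A5, PPARGC1B, ONECUT1 and KRT19 rose by 20.2 to 22.9.

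**Figure D2:**
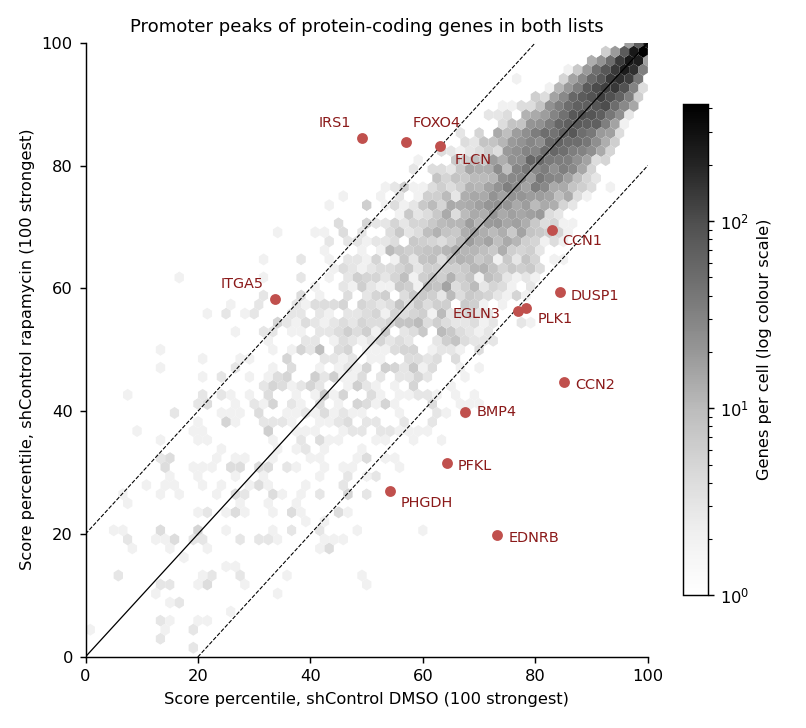
Score percentile of the promoter peak with DMSO (horizontal axis) and with rapamycin (vertical axis) in shControl cells for 12386 protein-coding genes with a shared promoter peak; grey shading counts genes on a log colour scale, the solid line marks equal percentiles and the dashed lines a shift of 20 points. Red points are named genes: CCN2 and EDNRB lie far below the lines and IRS1 and FOXO4 above, while most genes follow the diagonal.

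The genes of the mTOR complexes and their regulators kept their promoter peaks: all 35 had one in both lists, with a median shift of -0.20 (0.10 with equal list lengths). MTOR itself, the kinase, was at percentile 99.3 with DMSO and 98.3 with rapamycin. RPTOR, the mTORC1 scaffold that recruits substrates, was at 73.1 and 80.7, and RICTOR, its mTORC2 counterpart, at 92.6 and 95.2. The TSC genes, whose products restrain the activating GTPase RHEB, were at 81.9 and 83.2 for TSC1 and at 93.0 and 93.7 for TSC2. These shifts lay within the range that held 95% of promoter regions of the same level. FLCN rose, from 63.0 to 83.2; folliculin acts on the Rag GTPases that bring mTORC1 to the lysosome. Promoter regions at the level of FLCN, 70 to 80, had a 95% range of -14.9 to 15.1, so the shift of 20.2 lay outside it. RRAGA (5.29), LAMTOR1 (-5.98) and PIK3CA (-6.10) also lay outside the range of their level, -5.61 to 5.16, with shifts far short of 20 points. A 95% range leaves some promoter regions outside it at every level. Among the Rag genes, RRAGD moved most, from 69.6 to 53.0, short of the 20-point limit. FLCN also stood above its DMSO level of control cells in both shARID1A lists, at 79.1 and 85.9.

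Among mTORC1 substrates, 14 of 15 genes kept a promoter peak, with a median shift of -0.35 (0.03 with equal list lengths). The S6 kinase gene RPS6KB1 was at 97.3 and 93.4, and the translation repressor gene EIF4EBP1 at 91.5 and 96.2. ULK1, whose kinase starts autophagy and is held back by mTORC1, had a peak at percentile 50.4 with DMSO and none with rapamycin. The lost ULK1 peak was 295 bp wide, close to the narrowest of the list at 289 bp, and both shARID1A lists held a ULK1 promoter peak, at 73.1 and 74.2. FKBP1A, which encodes the protein that binds rapamycin, was at 95.4 and 96.2. FKBP1B gained a weak peak at 5.01.

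The insulin and growth factor feedback genes had a median shift of 3.49 over 15 shared peaks, with 9 above and 6 below 0, but of 0.07 when all promoter peaks of each gene were averaged. IRS1, an adaptor that passes the insulin receptor signal on, rose from percentile 49.2 to 84.5, and its peak was 627 bp wide with DMSO and 2191 bp with rapamycin. Both shARID1A lists had the IRS1 peak at 80.1 and 84.8, so the DMSO library of control cells was the one apart. IGF1R, the receptor for insulin-like growth factors, fell from 55.2 to 33.2, which lay inside the 95% range for its level (-33.7 to 33.3). INSR was at 56.8 and 63.2 and IRS2 at 51.7 and 59.7. Of the FOXO factors and their targets, which Akt signalling represses, FOXO4 rose from 57.0 to 83.9 and KLF15 gained a peak at 54.2. Over all 12 shared peaks of this list 9 shifts were below 0 and the median was -2.93.

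Genes of protein synthesis, the process most closely tied to mTORC1, hardly moved. All 34 ribosomal protein and translation factor genes of the TOP class had a promoter peak in both lists, with a median shift of 0.03, 17 above and 17 below 0 and a range from -10.9 to 18.6. The upper end was EEF2, the elongation factor gene, at 59.1 and 77.8. The 23 ribosome biogenesis genes had a median of -0.40, and MYC was at 88.0 and 78.0. Neither list had a member that fell or rose.

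The lists of lipid and sugar metabolism had medians below 0. For SREBP, cholesterol and fatty acid synthesis the median was -1.18, and 24 of 31 shifts were below 0, although none reached 20 points; over all genes 51.1% were below 0. LSS, which closes the sterol ring, was at 92.5 and 82.7, and SREBF1 at 83.6 and 89.3. The glycolysis and HIF list had a median of -3.73, with 20 of 28 below 0, and of -3.04 when all promoter peaks of each gene were averaged. PFKL, the liver form of phosphofructokinase, fell from 64.2 to 31.6, and EGLN3, a HIF prolyl hydroxylase induced by HIF, fell from 76.9 to 56.4. LDHA was at 85.3 and 69.4, PGK1 at 83.4 and 69.0 and SLC2A1, the glucose transporter gene, at 96.7 and 93.2. HK1 gained a peak at 36.2. In the shARID1A pair the same list had a median of -0.22, and the SREBP list -0.49.

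Among ATF4 targets and genes of amino acid and nucleotide synthesis the median was -1.13. PHGDH, the first enzyme of serine synthesis, fell from 54.2 to 27.1, and SLC1A5, a glutamine transporter, was at 81.1 and 62.8. SLC7A5, a leucine transporter, was at 35.5 and 54.4, and ATF4 itself at 93.3 and 88.6. The lysosome and autophagy list, whose transcription factors are held in the cytoplasm by mTORC1, had a median of -0.07 over 31 genes, 1 of which, TFAM, acts in mitochondria. In it MITF fell from 43.2 to 22.3, and the shift lay inside the 95% range for its level. TFEB was at 46.2 and 56.8 and SQSTM1 had different peaks in the 2 lists. The 20 genes of mitochondrial biogenesis had a median of 0.14.

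**Figure D3:**
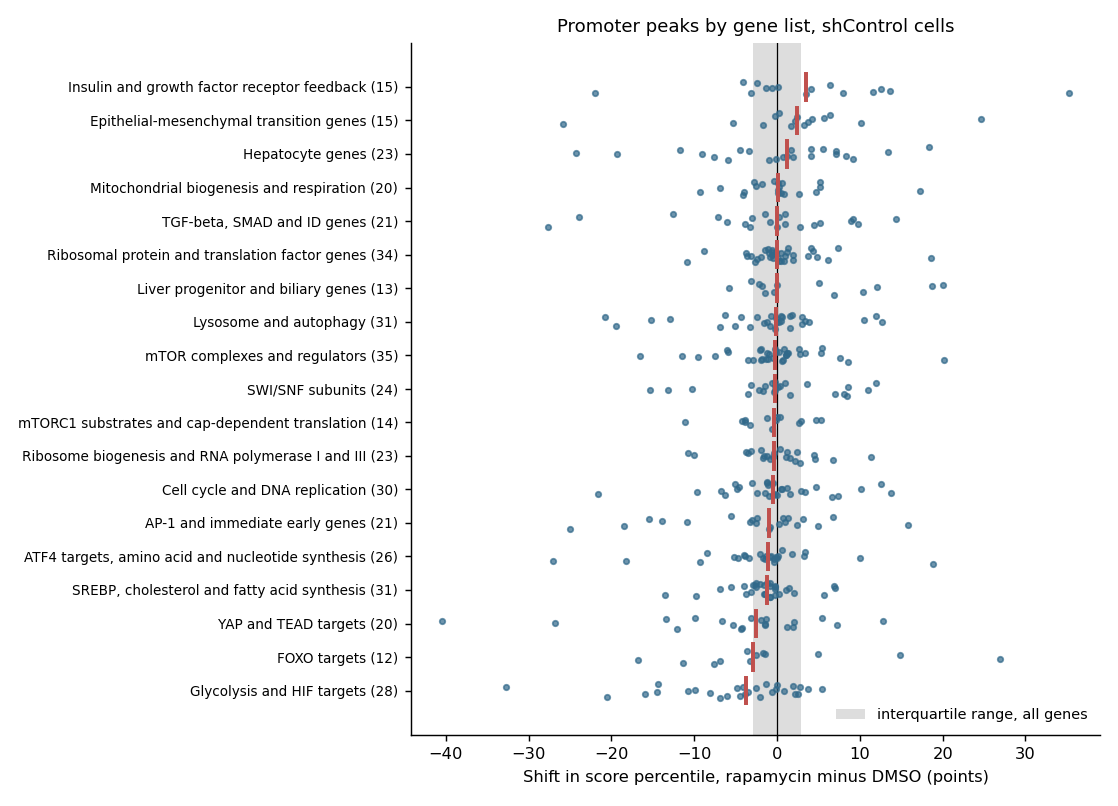
Shift in score percentile of the promoter peak, rapamycin minus DMSO, for each member with a shared peak (points) and the list median (red bar), for the 19 lists with at least 10 such genes, whose number follows each name. The grey band is the interquartile range over all protein-coding genes, -2.96 to 2.93; with the strongest promoter peak of each gene, as plotted, the medians run from -3.73 for glycolysis and HIF to 3.49 for the feedback genes.

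Of the cell cycle and replication genes, PLK1, the mitotic kinase, fell from 78.4 to 56.8 and was also lower with rapamycin in the shARID1A pair (76.2 and 56.3). The other 29 shared members stayed within 20 points, with CCND1 at 81.5 and 81.2. Among the AP-1 and immediate early genes DUSP1, a phosphatase that switches off MAP kinases, fell from 84.4 to 59.3. FOS was at 79.7 and 86.5 and JUN at 94.2 and 95.5.

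The targets of YAP and TEAD had a median of -2.52, with 14 of 20 shifts below 0, and of -4.76 when all promoter peaks of each gene were averaged. CCN2, a secreted matrix protein gene, fell from 85.2 to 44.7, the widest move of any gene in the lists. Its peak was nearly as wide with rapamycin (2075 bp) as with DMSO (2183 bp), and none of the 4 distal DMSO peaks assigned to CCN2 was lost. The shARID1A lists had the CCN2 peak at 85.5 with DMSO and 89.0 with rapamycin. ASAP1 fell from 75.4 to 48.6, against 77.1 and 81.3 in the shARID1A lists. CCN1 was at 82.9 and 69.5, and ANKRD1 at 90.3 and 83.6. AXL, a receptor tyrosine kinase gene, lost a peak at 14.4 and FOXF2 one at 4.80, and in the 2 weakest deciles that hold these peaks 40.6% and 62.1% of DMSO promoter peaks were lost.

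Among hepatocyte genes APOA1, the main protein of HDL, fell from 57.7 to 33.3 and APOA2 gained a peak at 49.8. APOA1 was also lower with rapamycin in the shARID1A pair, at 33.7 and 15.8. RXRA gained a peak at 4.51. Of the liver progenitor genes, IGF2 rose from 56.1 to 76.1. Among the 24 SWI/SNF genes with a shared peak no member fell or rose, and ARID1A was at 84.2 and 84.4.

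In the TGF-beta and ID list, ID2, an inhibitor of helix-loop-helix factors, lost a peak at percentile 55.9 that both shARID1A lists held (66.4 and 51.3). BMP4 fell from 67.6 to 39.9, while in the shARID1A pair it stood higher with rapamycin, at 64.5 and 73.3. Of the epithelial-mesenchymal transition genes, the matrix gene SPARC lost a peak at 36.4, the integrin gene ITGA5 rose from 33.7 to 58.3 and the splicing regulator gene ESRP1 fell from 30.7 to 4.92. Of genes that mark other cell types, LYVE1 lost a peak at 72.0 that both shARID1A lists held, CD3D one at 36.2, and LUM fell from 38.4 to 14.4.

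**Figure D4:**
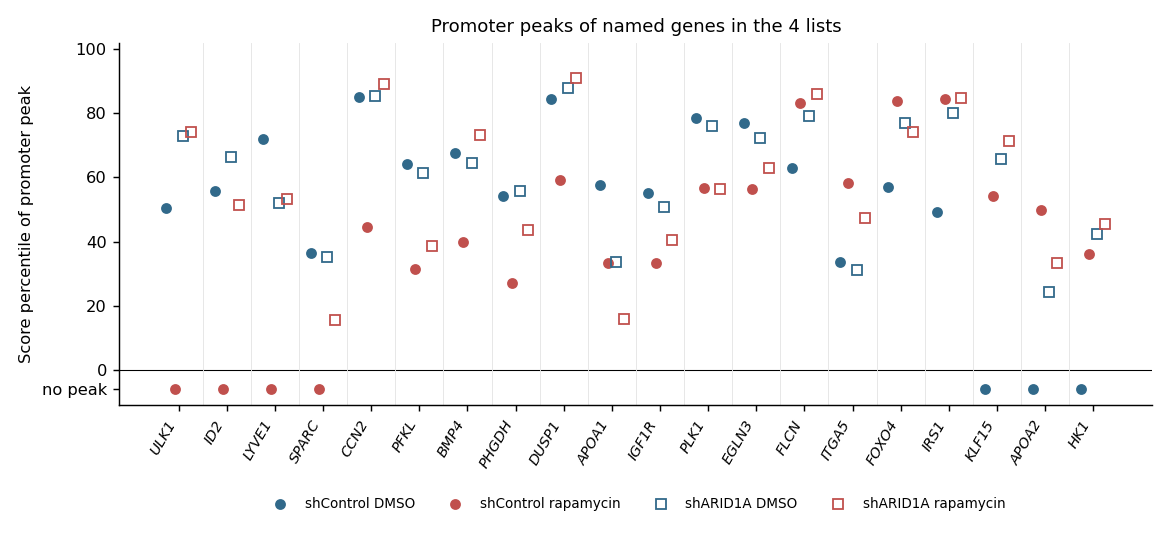
Score percentile of the promoter peak (vertical axis, 100 strongest) of 20 list genes in the 4 lists: filled circles are shControl, open squares shARID1A, blue DMSO and red rapamycin, with 1 library each. CCN2, BMP4 and DUSP1 are low in the shControl rapamycin library alone, IRS1 and KLF15 are low or absent in the shControl DMSO library alone, and PFKL, PLK1 and APOA1 are lower with rapamycin in both genotypes.

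The shARID1A libraries gave a second rapamycin and DMSO pair that shares no library with the control pair. Of the 11341 lost peaks, 12.8% (1449) were in the shARID1A DMSO list alone and 10.7% (1211) in the shARID1A rapamycin list alone, and 63.1% were in neither. Shared DMSO peaks weighted to the same score deciles were in the shARID1A DMSO list alone in 16.1%, in the rapamycin list alone in 12.9%, in neither in 28.8% and in both in 42.3%, against 13.4% in both for lost peaks. Of the 9209 gained peaks, 12.1% (1115) were in the shARID1A rapamycin list alone and 13.9% (1283) in the DMSO list alone. Shared rapamycin peaks of the same deciles were in the shARID1A rapamycin list alone in 13% and in the DMSO list alone in 15.9%. Over all gained peaks the lean was thus like that of shared ones. In the stronger 50% more gained peaks were in the shARID1A DMSO list alone (19.6%) than in the rapamycin list alone (10%). Shared peaks of the same deciles had 5.98% and 4.36%. Lost peaks of the stronger 50% had 18.6% and 9.15%, against 6.95% and 4.44% of shared ones. Among the stronger 50%, 40.6% of lost peaks (271 of 667) and 48% of gained peaks (206 of 429) were in both shARID1A lists, against 83.9% and 86.2% of shared peaks of the same deciles. Shared peaks had by rule already been found in both shControl libraries, so a higher presence in further lists follows in part from that rule. The weighting did not match width, with medians of 424 bp for lost and 778 bp for shared DMSO peaks.

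**Figure D5:**
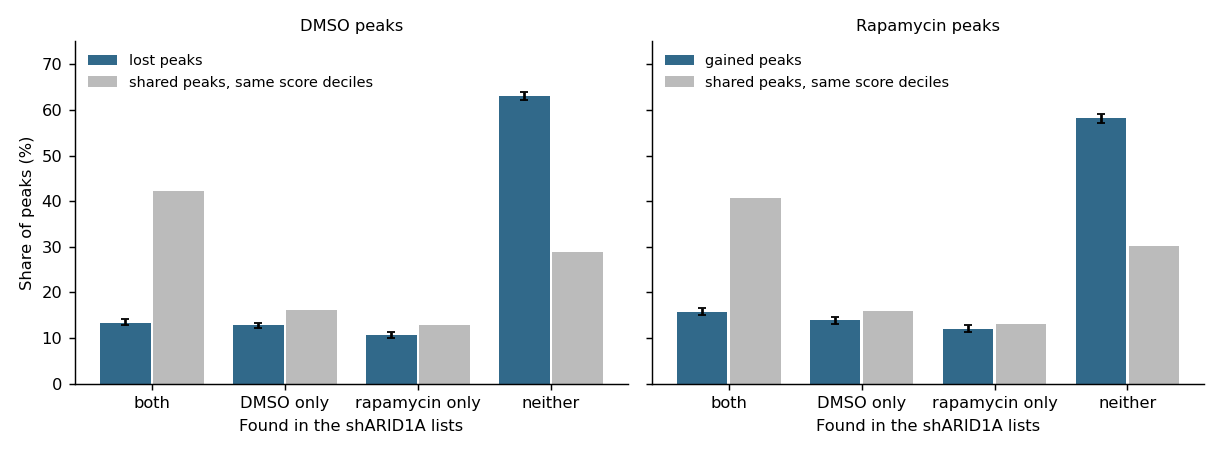
Share of shControl lost peaks (left, blue) and gained peaks (right, blue) by the shARID1A lists that hold an overlapping peak, with 95% exact intervals, beside shared peaks of the same list weighted to the same score deciles (grey). Lost and gained peaks were in neither shARID1A list in 63.1% and 58.2% of cases, against 28.8% and 30.2% for shared peaks, which by rule were already found in both shControl lists.

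Shifts in the control pair and in the knockdown pair were nearly uncorrelated. Over 12416 promoter regions present in all 4 lists, Pearson's r between the shifts was 0.022 and Spearman's rho 0.021, as a description across regions that share their libraries. Of 275 promoter regions there that fell with rapamycin in control cells, 25 fell and 22 rose by 20 points in the knockdown pair. Of 317 that rose, 24 rose and 23 fell. Over all 12416 promoter regions, 271 fell and 174 rose in the knockdown pair. Distal regions had an r of 0.062 over 19089. Of 1564 distal regions that fell in control cells, 167 fell and 119 rose in the knockdown pair, and of 895 that rose, 106 rose and 76 fell. Falls also outnumbered rises in the knockdown pair over all 19089 distal regions, where 1450 fell and 1074 rose. Among the list genes that fell, 11 had a value in both knockdown lists, with 6 shifts below 0 and 5 above.

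The promoters that lost or gained a peak also differed in sequence from those with a shared peak. The ETS letters were in 4.58% of 240 lost and 3.99% of 301 gained promoter windows and in 19.9% of 10415 shared ones. Shared promoters in the weaker 50% of the DMSO list held them in 6.12%, and those up to percentile 20 in 3.75%, which lies close to the share at lost promoters. Lost promoters had a median of 12 CpG in 300 bases against 20 for gained, 27 for shared and 6 for promoters without a peak. Shared promoters up to percentile 20 had a median of 22, close to that of gained ones. TEAD letters were in 13.7% of windows of genes that fell (23 of 168), 11.3% of those that rose and 10.3% of shared ones. Shared windows in the weaker 50% of the DMSO list held them in 11.1%, and all windows in 11.5%. CEBP letters (TTGCNNAA) were in 11.3% of windows of genes that fell (19 of 168), 7.34% of those that rose and 6.39% of shared ones. In the weaker 50% of shared windows that share was 8.23%. AP-1 letters (TGANTCA) were in 6.25% of lost, 7.64% of gained and 3.98% of shared windows, against 9.03% without a peak. Of the shared windows up to percentile 20, 3.12% held them (5 of 160).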

How the data were processed

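ATAC-seq peak lists of the shControl Huh7 libraries with DMSO and with rapamycin were compared, 1 library each, with the 2 shARID1A lists as background. Reads were aligned with BWA to GRCh38 (hg38) and peaks called with MACS2 2.0, per the submitters' processing notes; for settings and read depths nothing is given in the sources used here. The deposited lists each give a peak's position, a peak score by the authors, a distance to the nearest start and a nearest gene, per the file headers. Scores were used only as ranks within a list. Lost and gained peaks shared no base (minimum overlap 1 bp), and promoter peaks lay within 1 kb by the deposited distance. For genes, starts were taken from RefSeq and from the deposited distances of all lists. This was done because the nearest-gene column, the planned rule, was unstable between lists. Of 20037 protein-coding genes, 1314 had no known strand and so no usable start. The 342 of these with a peak near either gene end were left out, 8 of them in the lists. The others were kept among the 19695 as genes without a promoter peak. In the shARID1A lists a peak overlapping the shControl promoter peak also counted. A promoter peak whose centre moved across the 1 kb limit was counted as neither lost nor gained (38 and 40 genes).

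Named genes were the 10 strongest lost and gained peaks, the 10 strongest such promoter peaks, the 10 largest falls and rises at shared promoter peaks, the genes with most lost and gained peaks, list members that were lost, gained or moved by 20 points, and the mTOR complex genes; of each 10, examples are printed, and a few list members are not reported here. Other members are named as examples chosen after their values were seen. The comparison, the members and the gene lists were chosen with earlier results of these data known. Motif letters were searched in RefSeq promoter windows of 300 bases for 15843 genes, and also for HNF4, FOXA, CEBP, NRF1 and CTCF. Peak sequences away from promoters were not analysed here. Overlap and ranking code was tested on simulated lists. Alternatives changed the overlap, the promoter definition, the list length and the shift limit. Work was done in Python 3.11.15 with pandas 2.3.3, numpy 2.4.6 and scipy 1.17.1.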

Additional observations from a re-analysis of the deposited data

Results flagged for a closer look

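The promoter peak of AC024337.1, an uncharacterised non-coding gene on chromosome 15, moved by -49.3 percentile points with rapamycin in shControl cells, from 65.1 to 15.8, and by 28.1 in shARID1A cells, from 17.3 to 45.4. No other gene named or listed moved by 20 points or more in opposite directions in the 2 genotypes at the full list lengths, although SLC7A5 moved by 18.9 in shControl cells (over 20 with equal list lengths) and by -32.8 in shARID1A cells. With 1 library per group the difference was not tested.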

How the results depend on the processing

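No paired analysis was possible because each compared group had 1 library and the peak lists give no value at regions without a peak. Counts of lost and gained peaks stayed within 1.5 times under the overlap rules and list lengths tried, except in the stronger 50% of each list (667 lost, 429 gained). With at least 50% of the peak covered, 13484 were lost and 11942 gained. Promoter peaks lost numbered 485 within 500 bp of a start. A promoter definition pooled over the 4 lists, chosen after seeing the data, gave 5.56% lost at promoters and 28.1% at distal sites. Genes losing or gaining a promoter peak numbered 2199 and 2130 by the nearest-gene column but 321 and 389 by gene starts. At shared promoter regions, limits of 10 and 30 points gave 1227 and 95 falls and 1282 and 111 rises; ranks taken among shared promoter peaks alone gave 249 rises and 247 falls, and equal list lengths 261 falls and 539 rises. Equal list lengths for distal regions and list medians were added after seeing the data; the median over all genes was then 0.31, for glycolysis and HIF -2.4 and for SREBP -0.86. Of 69 alternative list medians, 8 had the opposite sign, all for lists whose median was at most 1.03 points in size. The FKBP list, with 5 genes, went from -3.82 to -12.9 with ranks among shared promoter peaks and to -0.22 with the mean over all promoter peaks of each gene. With 1 library a side and unknown depth, treatment cannot be told apart from differences between libraries, and most lost and gained peaks were weak.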
